A study of Mus musculus with 32 samples.

Results

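The genes described here are 10 genes of major histocompatibility complex (MHC) class I in the mouse. They were taken by symbol from a given list, out of 29511 genes in the count table, and all 10 were present in the count and FPKM tables. The list was chosen with earlier results of these data known. They comprise the classical heavy chain genes *H2-K1* and *H2-D1*, the light chain gene *B2m*, the nonclassical heavy chain genes *H2-Q1*, *H2-Q4*, *H2-Q6*, *H2-Q7*, *H2-T23* and *H2-M3*, and *Nlrc5*. All 10 passed the filter on low counts in the tumor fit, the lung fit and the fit of the 14-day samples.

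RNA was sequenced from primary tumors and lungs of *Clic4* knockout (KO) and wildtype (WT) mice. The hosts were female FVB/N littermates bred from heterozygous parents, and the KO was constitutive, so that every host cell lacked the intact gene. Primary tumors came from 100000 6DT1 cells placed in the fourth mammary fat pad and were taken on day 14 from 6 KO and 6 WT hosts. The 6DT1 line was derived from a mammary tumor of an MMTV-Myc FVB/N mouse, a transgene active mainly in mammary epithelium, and its cells carry *Clic4* in both host genotypes. Lungs of tumor-bearing mice were taken at the same time from 6 KO and 6 WT mice (14-day lungs), and lungs of mice without a tumor from 4 KO and 4 WT mice (control lungs). Total counts were 4446323 to 8318711 per library. *Clic4* was at 58.2 to 74.6 FPKM in 14-day KO lungs against 155 to 230 FPKM in 14-day WT lungs, and at 55.4 to 67.6 FPKM in control KO lungs against 160 to 175 FPKM in control WT lungs, so that every KO lung lay below every WT lung although reads of the gene remained. In tumors *Clic4* was at 58.9 to 69.0 FPKM in KO hosts and at 74.7 to 82.2 FPKM in WT hosts. The 8 lung epithelial markers summed to 32927 to 39448 FPKM in every lung and to 1.76 to 8.0 FPKM in tumors. In WT-host tumor 2, 6 B cell markers summed to 33.1 FPKM, against 0.67 to 1.67 FPKM in the other WT-host tumors and 0.98 to 3.29 FPKM in KO-host tumors, and its T cell markers were the highest of the WT group.

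A class I molecule holds a short peptide from the cell's own proteins in the groove of its heavy chain and carries it to the cell surface together with β2-microglobulin, the light chain encoded by *B2m*. CD8+ T cells read the peptides on the classical molecules H2-K and H2-D, and natural killer (NK) cells are held back by class I and released by its loss. The nonclassical molecules have narrower tasks: *H2-T23* encodes the heavy chain of Qa-1, which is read by NKG2A and related receptors, *H2-Q6* and *H2-Q7* encode Qa-2 molecules, and *H2-M3* encodes a heavy chain that prefers N-formylated peptides. NLRC5 is the transactivator of class I genes, acting through factors bound at their promoters, and interferon-γ raises the expression of most of these genes, *Nlrc5* included.

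All listed H2 genes lie on chromosome 17, and all but *H2-M3* share some stretches of sequence with other genes. In GENCODE M21 (GRCm38), *H2-K1* (ENSMUSG00000061232) lies from 33996017 to 34000347 on the minus strand, *H2-D1* (ENSMUSG00000073411) from 35262730 to 35267499, *H2-Q6* (ENSMUSG00000073409) from 35424850 to 35430055 and *H2-Q7* (ENSMUSG00000060550) from 35439155 to 35443773 on the plus strand. *B2m* (ENSMUSG00000060802) lies on chromosome 2 from 122147686 to 122153083, and *Nlrc5* (ENSMUSG00000074151) on chromosome 8 from 94434356 to 94527272, both on the plus strand. RSEM divides reads that fit several transcripts among the genes, so sharing sets how far a gene's own value can be trusted. Of all stretches of 100 bases in a gene's annotated transcripts, 11.98% in *H2-Q7*, 10.8% in *H2-Q6* and 8.05% in *H2-Q1* occur also in another gene. This share was 3.59% for *H2-D1*, 3.15% for *H2-T23*, 2.16% for *H2-Q4* and 0.957% for *H2-K1*, while *B2m*, *H2-M3* and *Nlrc5* shared none. FVB/N mice carry another H2 haplotype than the reference strain, and how that moved reads between the heavy chain genes was not tested.

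The promoters are shown as background, since these are the windows through which NLRC5, NF-κB and interferon regulatory factors are known to act. Whether these factors acted in the tumors was not tested. RefSeq sequences of GRCm38.p6 from 250 bases before to 50 bases after the start were matched for 8 of the 10 genes. *H2-Q1* and *Nlrc5* were not matched. The capitals mark 4 motifs searched on both strands, GGGANNNNCC (a κB-type site), AANNGAAA (an interferon regulatory factor core), TGACG (a cyclic AMP response element core) and CCAAT, whose spellings were chosen after the promoters had been read. The sequences below lie at chr17:34000298-34000597 on the minus strand (*H2-K1*), and on the plus strand at chr17:35262844-35263143 (*H2-D1*), chr17:35424600-35424899 (*H2-Q6*), chr17:35438905-35439204 (*H2-Q7*) and chr2:122147437-122147736 (*B2m*). *H2-T23*, at chr17:36032652-36032951 on the minus strand, is added as the promoter with the fewest of these motifs.
H2-K1: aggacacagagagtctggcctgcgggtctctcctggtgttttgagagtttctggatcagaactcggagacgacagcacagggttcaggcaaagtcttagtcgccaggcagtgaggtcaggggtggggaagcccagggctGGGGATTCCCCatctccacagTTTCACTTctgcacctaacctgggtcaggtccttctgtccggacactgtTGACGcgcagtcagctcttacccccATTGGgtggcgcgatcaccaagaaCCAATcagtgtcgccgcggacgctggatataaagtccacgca
H2-D1: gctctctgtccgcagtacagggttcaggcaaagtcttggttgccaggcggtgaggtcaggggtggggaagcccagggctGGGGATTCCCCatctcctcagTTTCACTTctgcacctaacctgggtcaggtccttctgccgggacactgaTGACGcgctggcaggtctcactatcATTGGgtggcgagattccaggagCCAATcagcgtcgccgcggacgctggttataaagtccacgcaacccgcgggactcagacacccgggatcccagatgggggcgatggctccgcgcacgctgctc
H2-Q6: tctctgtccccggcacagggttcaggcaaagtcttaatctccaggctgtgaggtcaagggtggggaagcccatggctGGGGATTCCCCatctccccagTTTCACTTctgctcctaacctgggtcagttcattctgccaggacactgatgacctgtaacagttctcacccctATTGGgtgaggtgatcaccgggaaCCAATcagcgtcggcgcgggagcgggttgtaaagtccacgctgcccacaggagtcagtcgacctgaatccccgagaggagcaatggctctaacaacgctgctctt
H2-Q7: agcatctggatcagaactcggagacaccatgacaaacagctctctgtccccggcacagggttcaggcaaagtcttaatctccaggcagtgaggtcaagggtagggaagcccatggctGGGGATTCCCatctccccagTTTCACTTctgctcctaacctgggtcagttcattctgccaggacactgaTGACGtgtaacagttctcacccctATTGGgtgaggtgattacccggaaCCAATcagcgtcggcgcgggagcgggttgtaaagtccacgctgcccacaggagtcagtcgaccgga
B2m: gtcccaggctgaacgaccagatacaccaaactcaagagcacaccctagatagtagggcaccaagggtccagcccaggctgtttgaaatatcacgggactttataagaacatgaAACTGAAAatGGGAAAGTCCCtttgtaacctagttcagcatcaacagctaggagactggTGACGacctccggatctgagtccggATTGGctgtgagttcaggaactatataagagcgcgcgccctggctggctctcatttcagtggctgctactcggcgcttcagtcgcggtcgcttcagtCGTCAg
H2-T23: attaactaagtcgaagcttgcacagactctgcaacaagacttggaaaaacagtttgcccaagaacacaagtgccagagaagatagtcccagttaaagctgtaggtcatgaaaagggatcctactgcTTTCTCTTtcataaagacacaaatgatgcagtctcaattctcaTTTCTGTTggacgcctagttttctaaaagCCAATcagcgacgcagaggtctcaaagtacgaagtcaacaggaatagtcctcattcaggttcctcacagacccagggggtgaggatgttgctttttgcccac

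In *H2-K1*, *H2-D1*, *H2-Q6* and *H2-Q7* the κB-type letters stand just before the interferon regulatory factor letters, and in *B2m* the order is the other way round. CCAAT was found in 8 of 8 promoters and in 37.9% of 27025 RefSeq promoters of the same length. AANNGAAA was found in 8 of 8 against 24.2%, GGGANNNNCC in 7 of 8 against 20.5%, with *H2-T23* as the exception, and TGACG in 6 of 8 against 21.0%, with *H2-Q6* and *H2-T23* as the exceptions. The motifs overlapped only in *H2-M3*, where a CCAAT box shares bases with the κB-type site. Since the spellings were chosen on these promoters and most of the 8 are close paralogs, the counts describe these sequences, are not independent of each other, and cannot be read against the shares of all promoters. Binding was not measured.

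In primary tumors all 10 genes were higher in KO hosts than in WT hosts. The log2 fold changes ran from 0.69 for *H2-M3* to 1.81 for *H2-Q6*, with a median of 1.23, against a median of -0.01 over all genes tested. All 10 passed an FDR of 0.05 in edgeR's quasi-likelihood test, where 2.02% of 13830 genes were called higher and 0.492% lower. All 10 had every KO-host tumor above every WT-host tumor in FPKM, the read fragments scaled by RSEM for transcript length and library size, which held for 1.05% of 13816 genes. Besides an FDR under 0.05, 8 of the 10 had at least a 2-fold change, against 1.01% of all genes, and *B2m* and *H2-M3* stayed below that fold. Since the 10 genes were chosen with earlier results of these data known, the shares of all genes are a description and not an independent test. A bulk sample cannot tell more cells that express a gene from more RNA per cell.

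**Figure D1:**
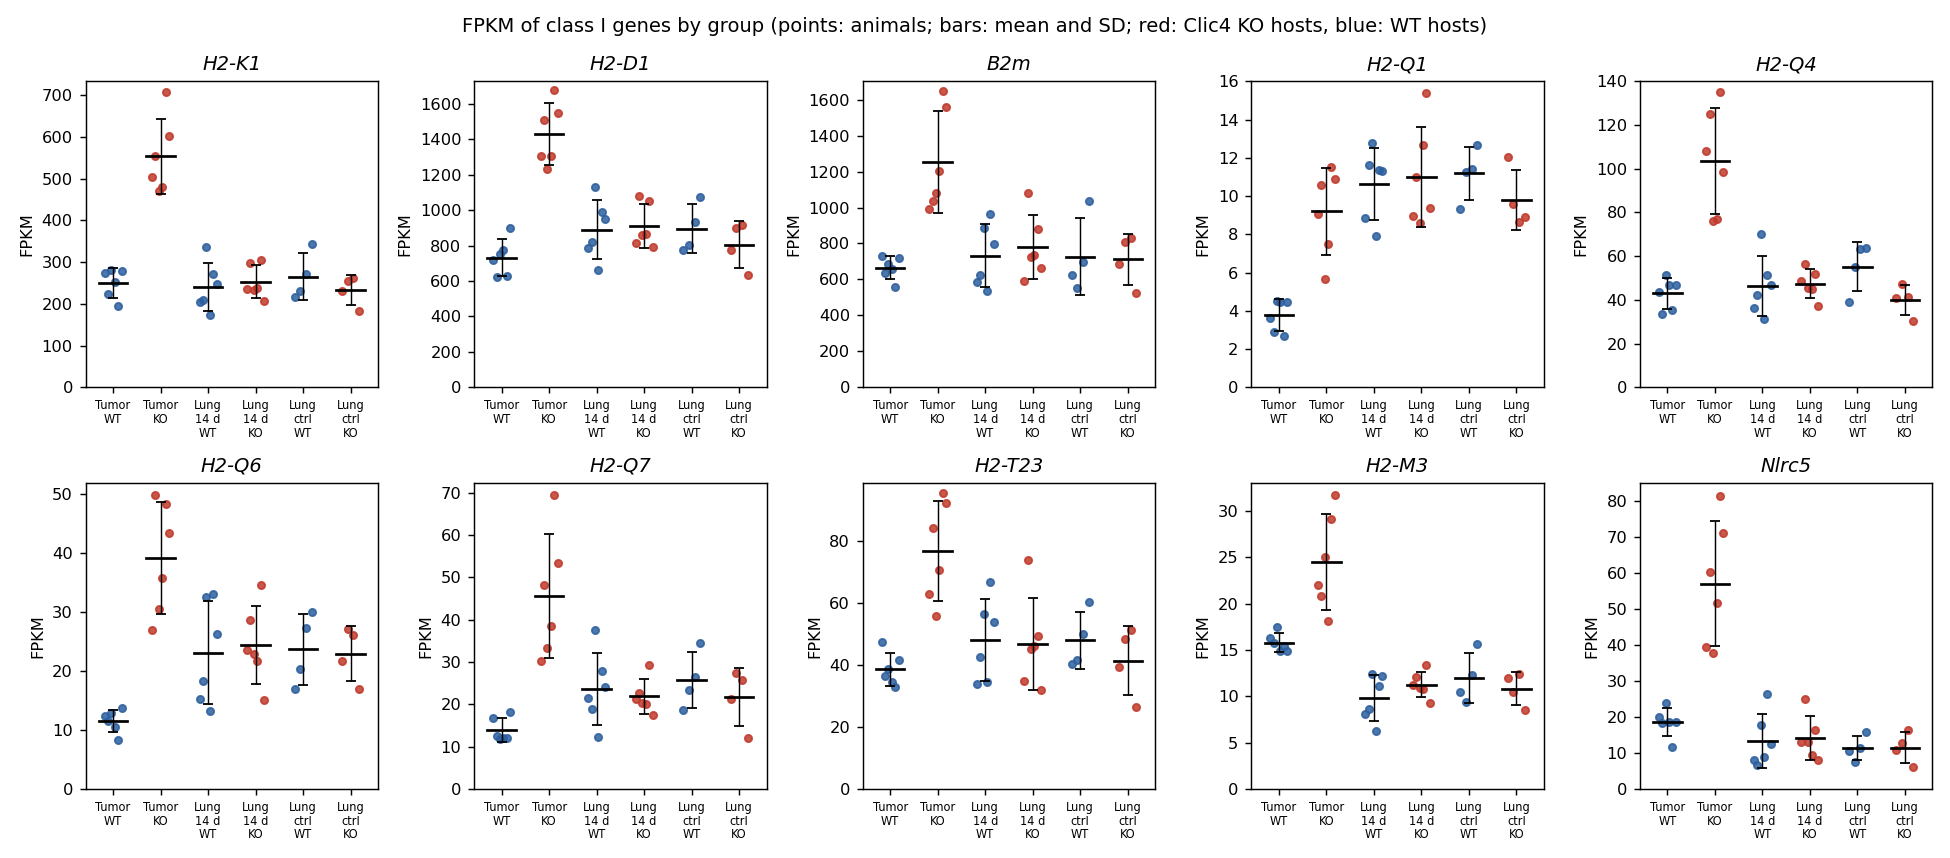
FPKM of each class I gene in every sample of the 6 groups, on linear axes that start at 0. Points are animals (red, KO; blue, WT), the horizontal line is the group mean and the error bar the SD; KO-host tumors lie above WT-host tumors in all 10 panels, while KO and WT lungs overlap.

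Of the classical heavy chains, *H2-K1* was at 471 to 707 FPKM in KO-host tumors, with a median of 529, and at 194 to 282 FPKM in WT-host tumors, with a median of 263. The log2 fold change was 1.18 (SE 0.12, edgeR FDR 8.87e-05). *H2-D1* was at 1229 to 1676 FPKM in KO hosts, with a median of 1407, and at 625 to 898 FPKM in WT hosts, with a median of 736. For both genes the groups were far apart, with the lowest KO-host tumor 189 FPKM above the highest WT-host tumor for *H2-K1* and 332 FPKM above it for *H2-D1*. The log2 fold change of *H2-D1* was 1.02 (SE 0.11, edgeR FDR 0.000189).

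The light chain moved with them. *B2m* was at 991 to 1647 FPKM in KO-host tumors, with a median of 1141, and at 560 to 733 FPKM in WT-host tumors, with a median of 672. Its log2 fold change was 0.95 (SE 0.12, edgeR FDR 0.000426). The 8 heavy chain genes together came to 2280 ± 324 FPKM (SD, n = 6) in KO hosts and to 1109 ± 144 FPKM (SD, n = 6) in WT hosts. The FPKM of *B2m* per FPKM of heavy chain was 0.55 ± 0.08 in KO hosts and 0.60 ± 0.04 in WT hosts (SD, n = 6 each), a difference within the spread of the tumors.

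Among the nonclassical genes, the Qa-2 genes had the largest changes. *H2-Q6* was at 26.9 to 49.8 FPKM in KO-host tumors, with a median of 39.6, and at 8.3 to 13.8 FPKM in WT-host tumors, with a median of 11.9, and its log2 fold change was 1.81 (SE 0.17, edgeR FDR 4.36e-05). *H2-Q7* was at 30.1 to 69.4 FPKM in KO hosts, with a median of 43.5, and at 11.7 to 18.1 FPKM in WT hosts, with a median of 12.3, and its log2 fold change was 1.54 (SE 0.19, edgeR FDR 0.000283). The lowest KO-host tumor stood above the highest WT-host tumor by 13.1 FPKM for *H2-Q6* and by 12.1 FPKM for *H2-Q7*. *H2-Q6* and *H2-Q7* share bases with each other, so reads may have passed between them, but the sum of the counts of all 8 H2-Q genes rose as well, with a log2 fold change of 1.42 (SE 0.15, edgeR FDR 0.000105).

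*H2-Q4*, a further gene of the Q region, was at 76.1 to 135 FPKM in KO-host tumors, with a median of 103, and at 33.6 to 51.5 FPKM in WT-host tumors, with a median of 45.2 (log2 fold change 1.28, SE 0.16, edgeR FDR 0.000338). *H2-Q1* had the lowest level of the 10, at 5.66 to 11.5 FPKM in KO hosts and 2.68 to 4.52 FPKM in WT hosts. It rested on 26 to 134 counts per tumor, and its log2 fold change of 1.34 had the largest SE, 0.20 (edgeR FDR 0.00170). All of these H2-Q genes had groups that did not overlap.

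*H2-T23*, the Qa-1 heavy chain, was at 55.9 to 95.3 FPKM in KO-host tumors, with a median of 77.3, and at 32.8 to 47.3 FPKM in WT-host tumors, with a median of 37.6 (log2 fold change 1.01, SE 0.13, edgeR FDR 0.000359). *H2-M3* had the smallest change, with 18.2 to 31.8 FPKM in KO hosts and 14.9 to 17.5 FPKM in WT hosts (log2 fold change 0.69, SE 0.12, edgeR FDR 0.00537). Its groups were the closest of the 10, with a gap of 0.68 FPKM between KO-host tumor 4 and WT-host tumor 3.

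*Nlrc5*, which encodes the transactivator, was at 38.0 to 81.4 FPKM in KO-host tumors, with a median of 56.1, and at 11.7 to 23.9 FPKM in WT-host tumors, with a median of 18.7. The lowest KO-host tumor exceeded the highest WT-host tumor by 14.1 FPKM. The log2 fold change of 1.76 (SE 0.17, edgeR FDR 6.93e-05) was close to that of *H2-Q6* and larger than those of *H2-K1* and *H2-D1*, although the differences between genes were not tested.

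The tumors of the KO group were not equally high. KO-host tumor 5 had the highest level for 8 of the 10 genes and was among the 2 highest for all 10, and KO-host tumor 6 was among the 2 highest for 8. KO-host tumor 3 was the lowest for 6 genes, and in the WT group tumor 5 was the lowest for 6. Without KO-host tumors 5 and 6, all 10 genes were still called, with log2 fold changes of 0.50 to 1.69 and FDRs up to 0.0445. Without WT-host tumor 2, all 10 were called as well, with log2 fold changes of 0.68 to 1.80. Over the 12 tumors, deviations from the group means correlated between the genes with Pearson's r of 0.32 to 0.95 over 45 pairs, and the median was 0.77; values of 1 library share its depth and cell content.

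**Figure D2:**
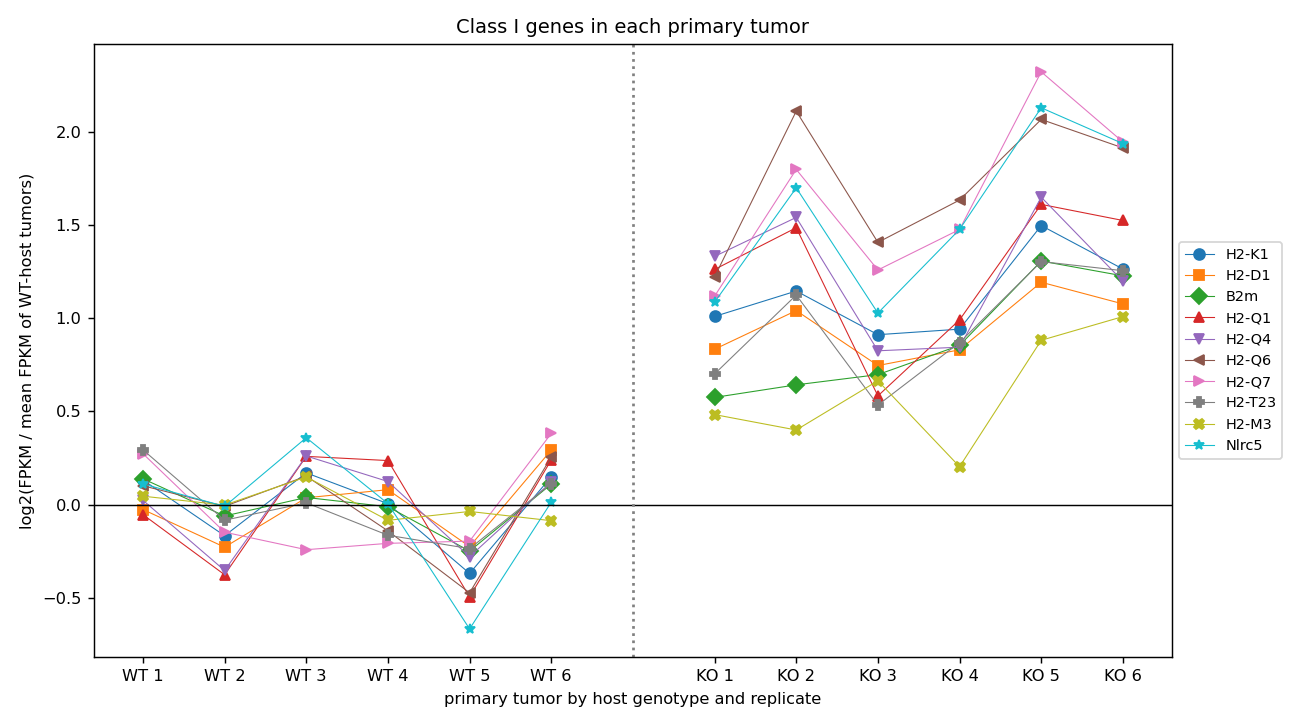
Each class I gene in each of the 12 tumors, as the log2 ratio of its FPKM to the mean FPKM of the WT-host tumors (vertical axis), by host genotype and replicate (horizontal axis); lines join the values of a gene and carry no order. KO-host tumor 5 has the highest value for 8 of the 10 genes, and *H2-M3* lies lowest in 5 of the 6 KO-host tumors.

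Levels per length were in a similar order in all groups. *H2-D1* was the highest gene, followed by *B2m* and *H2-K1*, in all 6 groups. The means of *H2-D1* and *B2m* were within their spread of each other, as in WT-host tumors with 733 ± 102 and 665 ± 62.5 FPKM (SD, n = 6). *H2-Q4* and *H2-T23* came next in every group. In WT-host tumors they were likewise not set apart, with 42.9 ± 7.02 and 38.6 ± 5.32 FPKM (SD, n = 6). *H2-Q4* was above *H2-T23* in every KO-host tumor, while in the other groups their order varied between samples. The lower places changed between tissues. In WT-host tumors *Nlrc5* (18.6 ± 3.93 FPKM) and *H2-M3* (15.8 ± 1.00 FPKM) stood above *H2-Q7* (13.9 ± 2.80 FPKM), *H2-Q6* (11.5 ± 1.94 FPKM) and *H2-Q1* (3.78 ± 0.83 FPKM), each as mean and SD of 6 tumors, and neighbours in this order overlapped except *H2-Q6* and *H2-Q1*. In 14-day WT lungs *H2-Q7* (23.6 ± 8.57 FPKM) and *H2-Q6* (23.1 ± 8.70 FPKM) stood above *Nlrc5* (13.4 ± 7.49 FPKM), *H2-Q1* (10.6 ± 1.86 FPKM) and *H2-M3* (9.82 ± 2.51 FPKM).

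*H2-K1* and *H2-D1* supplied 86.9 to 88.6% of the summed heavy chain FPKM in each of the 6 groups. *H2-Q6* and *H2-Q7* supplied 2.29 ± 0.24% in WT-host tumors and 3.66 ± 0.55% in KO-host tumors (SD, n = 6 each), while the group means in lungs were 3.47 to 3.72%. *H2-D1* was 2.94 ± 0.28 times as high as *H2-K1* in WT-host tumors and 2.60 ± 0.13 times in KO-host tumors (SD, n = 6 each), against group means of 3.40 to 3.74 in lungs.

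WT-host tumors were compared with 14-day WT lungs to place the levels between tissues. *H2-M3* was higher in tumors, with a log2 fold change of 0.73 (SE 0.15, edgeR FDR 8.34e-05). *H2-Q1* was lower in tumors by a log2 fold change of -1.64 (SE 0.18, edgeR FDR 9.12e-09), *H2-Q6* by -0.96 (SE 0.23, edgeR FDR 0.000466) and *H2-Q7* by -0.65 (SE 0.21, edgeR FDR 0.00787). The other 6 genes did not pass the test, with log2 fold changes of -0.27 for *H2-T23*, -0.19 for *H2-D1*, -0.11 for *H2-Q4*, -0.08 for *B2m*, 0.11 for *H2-K1* and 0.38 for *Nlrc5*. Tumors and lungs differ in most genes, with 37.1% called higher and 38.4% called lower in tumors. Of the 10, 1 was called higher and 3 lower, and 10 related genes are too few to set these counts apart from those shares. With offsets for GC content *H2-Q7* was not called (FDR 0.108), while *H2-K1* (0.34, FDR 0.0277) and *Nlrc5* (0.66, FDR 0.0296) were called higher in tumors. With the counts of paralogs summed, the 5 H2-T genes were lower in tumors (-0.69, SE 0.24, edgeR FDR 0.0114), although *H2-T23* alone was not called, and the 8 H2-Q genes by less than *H2-Q1* or *H2-Q6* alone (-0.53, SE 0.17, edgeR FDR 0.00766).

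In lungs edgeR called none of the 10 genes at an FDR of 0.25 in any of the 4 comparisons in the fit of 20 lungs, nor in the interaction of genotype and tumor. DESeq2 and a fit of the compared groups alone each called 1 gene, *H2-Q4*, in control lungs. In 14-day lungs, KO against WT, 8 genes had a positive and 2 a negative log2 fold change, from -0.13 for *H2-Q7* to 0.20 for *H2-M3*, with SEs of 0.11 to 0.28 and a median of 0.07. No gene had an unadjusted p under 0.05, and DESeq2 and limma called 0 too, against a background of 0.393% higher and 0.468% lower in edgeR. *H2-K1* was at 207 to 306 FPKM in 14-day KO lungs, with a median of 237, and at 173 to 335 FPKM in 14-day WT lungs, with a median of 228. *Nlrc5* was at 8.16 to 24.97 FPKM and 6.73 to 26.4 FPKM in the same groups. The groups overlapped for both genes. In these lungs high and low samples recurred across genes, with 14-day KO lung 5 and 14-day WT lung 3 among the 2 highest of their groups for all 10 genes.

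In control lungs, KO against WT, all 10 log2 fold changes were negative, from -0.45 for *H2-Q4* to -0.03 for *Nlrc5*, but with offsets for GC content *H2-Q6* (0.063) and *Nlrc5* (0.027) were positive. They had a median of -0.19 and SEs of 0.14 to 0.35. The background was 0.480% called higher and 0.493% lower. *H2-Q4* was at 40.6, 47.3, 41.2 and 30.4 FPKM in the 4 control KO lungs and at 39.2, 55.0, 63.0 and 63.7 FPKM in the 4 control WT lungs, so the groups overlapped. It was the only gene with an unadjusted p under 0.05 (0.0256 in edgeR's test, FDR 0.379), and DESeq2, with an FDR of 0.220, and a fit of the compared groups alone, with an FDR of 0.181, called it. *H2-K1* was at 232, 256, 262 and 183 FPKM in control KO lungs and at 216, 230, 273 and 342 FPKM in control WT lungs. Control WT lung 4 was the highest of its group for all 10 genes and control KO lung 4 the lowest of its group for 9. Log2 fold changes of lymphocyte markers were negative too, for all 6 B cell (median -0.69), all 10 T cell (median -0.44) and all 8 NK cell markers (median -0.63). B cell markers summed to 15.6 to 38.6 FPKM in control KO lungs and to 41.5 to 59.3 FPKM in control WT lungs. Of these 6 markers, 0 were called by edgeR, DESeq2 or limma. T cell markers summed to 41.7 to 69.1 FPKM against 61.7 to 78.9 FPKM, and NK cell markers to 19.7 to 65.3 FPKM against 54.8 to 115 FPKM. In edgeR 1 of these markers was called, *Prf1*, the perforin of cytotoxic cells (log2 fold change -1.01, SE 0.28, edgeR FDR 0.233), and 2 of each list had an unadjusted p under 0.05, while DESeq2 and limma called 0, with no adjusted p for *Prf1* in DESeq2. Of the transcription list *Irf8*, an interferon regulatory factor of myeloid and B cells, was called lower (-0.51, SE 0.15, edgeR FDR 0.249), by DESeq2 as well (FDR 0.0646). Neither was called with offsets for GC content (FDR 0.551 and 0.562) or by limma (FDR 0.363 for both). The part of these cells in the class I values was not tested.

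From control to 14-day lungs the 10 genes had log2 fold changes of 0.04 to 0.45 in KO mice, with a median of 0.16, and of -0.27 to 0.28 in WT mice, with a median of -0.08. In edgeR none passed the FDR of 0.25 and none had an unadjusted p under 0.05 in either genotype, and DESeq2 and limma called 0. The background in edgeR was 0.780% higher and 0.275% lower in KO lungs and 1.18% higher and 1.15% lower in WT lungs. Neutrophil markers had positive log2 fold changes for all 6 tested, with a median of 1.34 in KO lungs and of 1.43 in WT lungs. In edgeR 2 rose in KO lungs (*Cxcr2* and *Csf3r*) and 3 in WT lungs (*Cxcr2*, *S100a8* and *S100a9*), while DESeq2 called 4 in each and limma 0 and 1. They summed to 103 to 185 FPKM in control KO lungs and to 56.8 to 814 FPKM in 14-day KO lungs, and to 71.4 to 155 FPKM in control WT lungs and 162 to 777 FPKM in 14-day WT lungs. Of the other lists, edgeR called 1 gene of the receptor list higher in WT lungs. It called 1 fibroblast and 1 lung epithelial marker lower there, and no gene of these lists in KO lungs. The interaction was positive for all 10 genes, at 0.12 to 0.51 with a median of 0.21. In edgeR *H2-Q4* alone had an unadjusted p under 0.05 for it (0.0496, FDR 0.584), and DESeq2 and limma called 0, where 0.0499% of 16029 genes were called higher and 0.0% lower. It was also positive for all 6 B cell markers, at 0.67 to 1.44 with a median of 0.94, and for all 10 T cell markers, at 0.34 to 1.09 with a median of 0.51. Of 8 NK cell markers 6 were positive and 2 negative, at -0.28 to 0.93 with a median of 0.30. Of these markers, edgeR, DESeq2 and limma called 0, and 2 B cell, 2 T cell and 1 NK cell marker had an unadjusted p under 0.05 in edgeR. The 6 neutrophil markers had a median of -0.34, with 0 called by edgeR, DESeq2 or limma and 0 at an unadjusted p under 0.05. The part of these cells in the class I values was not tested. The interaction shares its control lungs with the comparison of 14-day and control lungs in each genotype.

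The host genotype effect was larger in tumors than in 14-day lungs for 8 of the 10 genes. This was the test of the difference itself in 1 edgeR fit of 24 samples, taken as independent, at an FDR of 0.05. The background was 0.558% of 16115 genes called higher and 0.149% lower. The difference in log2 fold change was 1.73 for *H2-Q6* (SE 0.31, edgeR FDR 0.00652), 1.67 for *H2-Q7* (SE 0.29, edgeR FDR 0.00592) and 1.10 for *H2-K1* (SE 0.20, edgeR FDR 0.00677). *H2-Q1*, *H2-Q4* and *H2-D1* passed as well, with differences of 1.28, 1.22 and 0.94. *Nlrc5*, with a difference of 1.61 (edgeR FDR 0.0410), and *H2-T23*, with 1.05 (edgeR FDR 0.0477), passed narrowly. When 1 sample was left out, *Nlrc5* lost its call in 15 of 24 fits and *H2-T23* in 16, and both lost it with the replicate number as a block (FDR 0.0664 and 0.0698). *H2-T23* was not called with RLE size factors (FDR 0.0534) or without the filter (FDR 0.0593), and with the H2-T genes summed the difference of 1.01 had an FDR of 0.212. Neither *Nlrc5* (FDR 0.134) nor *H2-T23* (FDR 0.0961) was called by limma on FPKM. *B2m* did not pass, with a difference of 0.85 (SE 0.22, edgeR FDR 0.0693), but DESeq2 called it with an FDR of 0.0176. *H2-M3* did not pass, with 0.48 (SE 0.20, edgeR FDR 0.362).

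**Figure D3:**
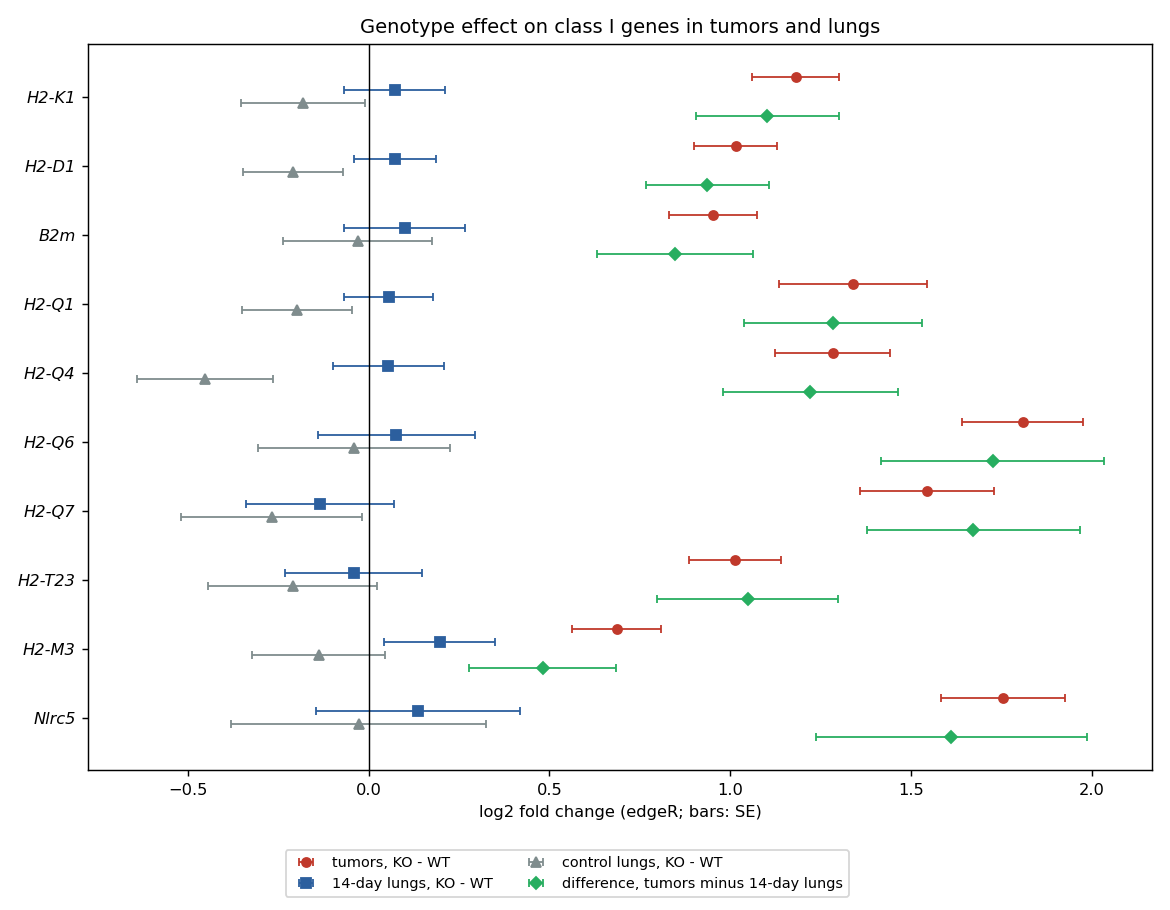
Log2 fold change (horizontal axis, edgeR; bars are SE) of each class I gene between KO and WT in tumors (red circles), 14-day lungs (blue squares) and control lungs (grey triangles), and the difference between tumors and 14-day lungs (green diamonds). Tumor effects lie between 0.69 and 1.81, and lung effects between -0.45 and 0.20.

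The wider class I pathway was followed in tumors with lists of genes by role. Of the other class I heavy chain genes, 13 were in the table and 5 could be tested, and 3 rose in KO-host tumors: *H2-T10*, *H2-Q10* and *H2-T22*, with log2 fold changes of 1.17, 1.17 and 1.16. *H2-Bl* (0.84, edgeR FDR 0.140) and *H2-T24* (0.39, edgeR FDR 0.531) did not pass. *H2-Q10* shares bases with *H2-K1*, *H2-Q1* and *H2-Q7*, and *H2-T22* with *H2-D1*, *H2-Q1* and *H2-T23*. The median of the 5 was 1.16, and 2 were called without KO-host tumors 5 and 6. Of class I-like genes outside the MHC, 1 of 7 tested rose, *Cd1d1*, which presents lipids to NKT cells (0.94, edgeR FDR 0.0384), and the median was -0.06. *Cd1d1* was not called without KO-host tumors 5 and 6.

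Genes that make the peptides rose in part. Of 12 tested, 6 rose and none fell in edgeR, with a median of 0.36, and DESeq2 called 7. *Psmb9* (1.66), *Psmb8* (1.32) and *Psmb10* (0.79), which replace constitutive subunits to form the immunoproteasome, had the largest changes of the 6. The others were *Psme2* (0.41), of the proteasome activator PA28, and the peptidases *Lap3* (0.39) and *Erap1* (0.36), of which the latter trims peptides in the endoplasmic reticulum. *Psmb9* was at 54.9 to 93.4 FPKM in KO-host tumors and at 18.1 to 34.8 FPKM in WT-host tumors (edgeR FDR 4.33e-05), and the groups did not overlap. The constitutive subunits *Psmb5*, *Psmb6* and *Psmb7* did not pass, with log2 fold changes of 0.10, 0.19 and -0.0038. Without KO-host tumors 5 and 6, 3 of the 12 were called, and without WT-host tumor 2, 4.

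Of 10 genes of peptide loading and assembly, 4 rose. They were *Tap1* (log2 fold change 1.52) and *Tap2* (1.28), the subunits of the peptide transporter, *Tapbp* (0.71), which encodes tapasin and bridges the transporter and the heavy chain, and *Tapbpl* (0.76), a related peptide editor. *Tap1* was at 45.3 to 89.3 FPKM in KO hosts and at 17.9 to 28.9 FPKM in WT hosts (edgeR FDR 8.89e-05). The general chaperones of the endoplasmic reticulum did not pass, as *Canx* with -0.05, *Pdia3* with 0.08 and *Calr* with 0.26. The median of the 10 was 0.17. Of 19 genes of the transcription of class I genes other than *Nlrc5*, 3 rose, and they were *Irf1* (1.16), *Irf8* (0.72) and *Stat2* (0.99), all of interferon signaling, while DESeq2 called 5, adding *Nfkb1* and *Stat3*. *Irf1* was at 59.8 to 84.6 FPKM in KO-host tumors and at 32.4 to 40.6 FPKM in WT-host tumors (edgeR FDR 4.33e-05), and the groups did not overlap. The components of the RFX complex, through which NLRC5 acts, did not pass (*Rfx5* 0.13, *Rfxap* 0.02, *Rfxank* -0.04), and the median of the 19 was 0.13. Without KO-host tumors 5 and 6, 4 genes of loading and 3 of transcription were called.

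Of 9 tested interferon receptor and signaling genes, *Socs1* (1.497), a feedback inhibitor of JAK kinases, and *Jak2* (0.50) rose, and the median was 0.21. *Ifng*, which encodes interferon-γ, did not pass the filter on low counts and was not tested. It was at 0.43 to 2.6 FPKM in KO-host tumors, with a mean of 1.14, and at 0 to 0.53 FPKM in WT-host tumors, with a mean of 0.17, and rested on 44 counts in all 12 tumors. A list of receptors of class I also held some that are not established to read the classical molecules. Of its 9 tested genes, the 2 that rose were of that kind: *Klrk1* (1.18), which encodes NKG2D and binds class I-like stress ligands, and *Lilrb4a* (0.68), an inhibitory receptor of myeloid cells. *Klrc1* (1.03, edgeR FDR 0.167) and *Klrd1* (0.83, edgeR FDR 0.278), which form the receptor of Qa-1, and *Cd8a* (1.14, edgeR FDR 0.279), of the CD8 co-receptor, did not pass, but *Cd8a* was called without WT-host tumor 2. The median of the 9 was 0.68, and neither *Klrk1* nor *Lilrb4a* was called without KO-host tumors 5 and 6. Nothing in the pathway lists was called lower in KO-host tumors.

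**Figure D4:**
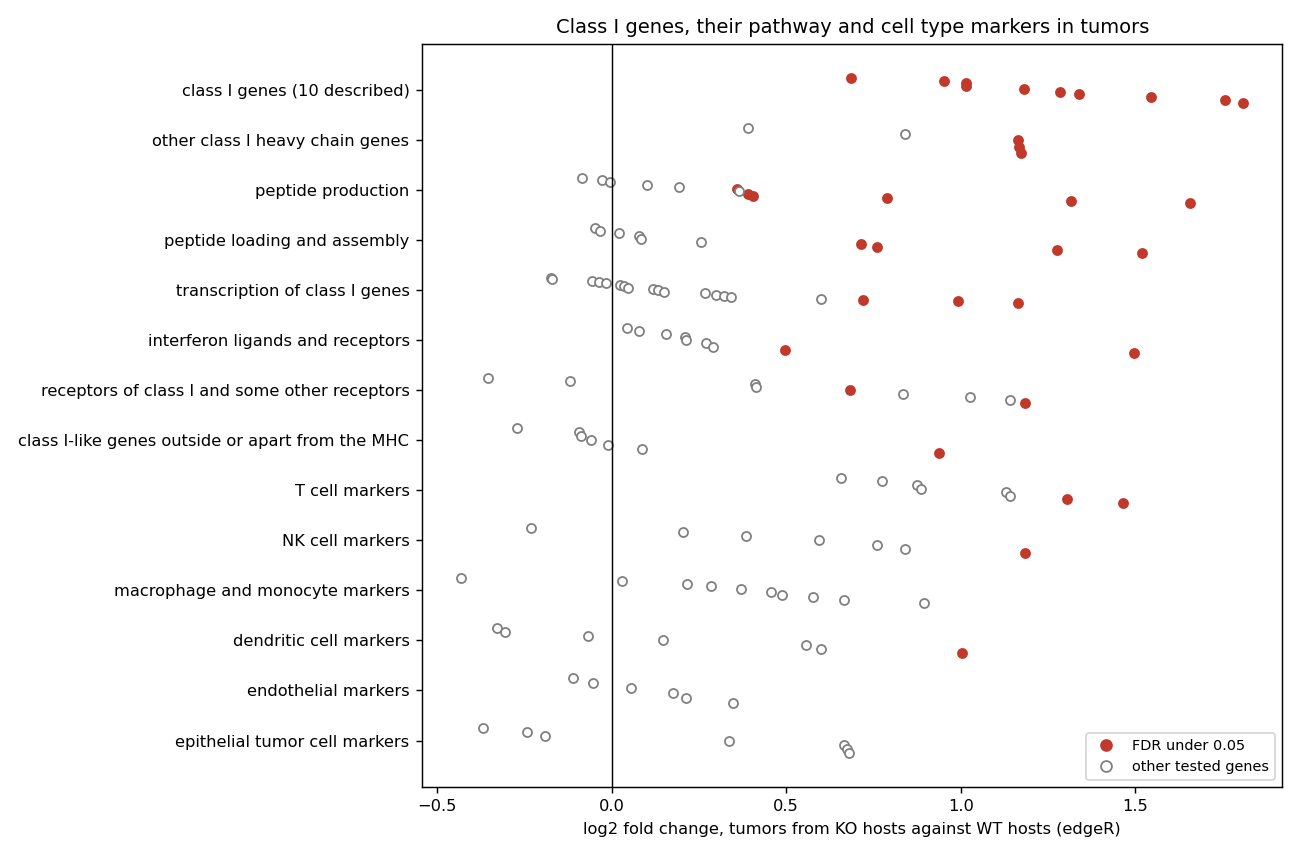
Log2 fold change between KO-host and WT-host tumors (horizontal axis, edgeR) of every tested gene of 14 lists (vertical axis); filled red points passed an FDR of 0.05 and open points did not. All 10 of the described class I genes are filled, against 6 of 12 genes of peptide production, 4 of 10 of loading, 3 of 19 of transcription and 2 of 8 T cell markers. The 10 genes and the lists were chosen with earlier results of these data known.

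Some markers of immune cells were also higher in KO-host tumors. Of 8 tested T cell markers, *Cd3g* (1.31, edgeR FDR 0.0389) and *Cd3d* (1.46, edgeR FDR 0.0391) rose, and the median of the 8 was 1.01. The 10 T cell markers summed to 32.6 to 59.6 FPKM in KO-host tumors and to 13.9 to 53.9 FPKM in WT-host tumors, with medians of 46.1 and 21.9, and none was at 0 throughout. The highest WT-host sum was that of WT-host tumor 2, the tumor with the B cell markers. Without it 5 of the 8 were called in edgeR. Without KO-host tumors 5 and 6, 0 were called, and 2 had an unadjusted p under 0.05. DESeq2 called 2 with all tumors. NK cell markers summed to 31.8 to 54.3 FPKM in KO hosts and 17.6 to 54.1 FPKM in WT hosts, with 1 of 7 tested called (*Klrk1*) by edgeR and DESeq2. The log2 fold changes of these 7 ran from -0.23 for *Eomes* to 1.18 for *Klrk1*, with a median of 0.59. The call of *Klrk1* as an NK cell marker was lost without WT-host tumor 2 and without KO-host tumors 5 and 6. Dendritic cell markers summed to 23.8 to 32.6 FPKM against 12.9 to 24.5 FPKM, with 1 of 7 called (*Itgax*, 1.00, edgeR FDR 0.00177). The log2 fold changes of these 7 ran from -0.33 for *Xcr1* to 1.00 for *Itgax*, with a median of 0.15. Macrophage and monocyte markers summed to 585 to 1167 FPKM against 376 to 894 FPKM, and 0 of 10 were called in edgeR, while DESeq2 called 1 (*Itgam*, higher). At an unadjusted p under 0.05 in edgeR 5 of the 10 were higher and 1 was lower, *Mertk* (-0.43). Of 5 neutrophil, 6 endothelial, 7 fibroblast and 7 epithelial markers tested, 0 were called by edgeR and 0 by DESeq2, with 1, 0, 1 and 2 at an unadjusted p under 0.05. The neutrophil and the fibroblast marker among these were higher, and the 2 epithelial ones, *Krt8* (-0.19) and *Krt18* (-0.24), lower in KO-host tumors. *Ly6g*, a defining neutrophil marker, was listed at 0 in all 12 tumors. Epithelial markers summed to 562 to 890 FPKM in KO hosts and to 623 to 1131 FPKM in WT hosts. The part of these cells in the class I values was not tested.

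The genes other than the described 10 whose pattern was most like *H2-K1* were found from log2(CPM + 1) in the 12 tumors, after subtracting the mean of each host genotype. They were *Atp6v1b2* (Pearson's r = 0.90), *Cars* (0.89), *Tap1* (0.88), *Lactb2* (0.87), *Twist1* (0.87), *Sbds* (0.87), *H2-T10* (0.87) and *Arf4* (0.87), all over 12 tumors that share library depth and cell content. Of these 8, *Tap1* and *H2-T10* belong to the class I pathway lists. Within the described set, *H2-K1* and *H2-D1* were the closest in both tissues, with r = 0.95 in tumors and r = 0.99 in 20 lungs.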

How the data were processed

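Stranded mRNA libraries were aligned by the authors to GRCm38 with STAR, and the authors deposited the expected counts of RSEM per gene, as whole numbers without normalization, and the FPKM of RSEM per gene symbol. The labels name 6 groups, and replicates are separate mice. The 10 genes and all lists were chosen with earlier results of these data known.

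Counts were tested with edgeR 4.0.16 (quasi-likelihood, TMM, filterByExpr, R 4.3.3), in 1 fit of 12 tumors, 1 of 20 lungs and 1 of the 24 samples of day 14, and p-values were adjusted (Benjamini-Hochberg) over all genes tested. Calls were made at an FDR of 0.05, or 0.25 in lungs, the limits of the study, without a fold limit. An SE is the log2 fold change divided by the square root of F. Named were the 10 genes, up to 4 genes with the smallest p of each list with others for comparison, chosen after their values were seen, and the 8 genes most like *H2-K1*. Promoters were from RefSeq, and positions and shared stretches from GENCODE M21. Alternatives were DESeq2 1.42.0, limma 3.58.1 on log2(FPKM + 1) or log2(FPKM + 0.1), RLE size factors, no filter or a minimum of 10 counts throughout, the replicate number as a block, offsets for GC content, paralogs summed, a 2-fold limit (1.5-fold in lungs), other FDR limits, only the compared groups, FPKM without *Rn7s1*, *Rn7s2* and *Rn7sk* in the total (58.1 to 70.2% of it), and each sample left out. Leaving out KO-host tumors 5 and 6 together, or WT-host tumor 2 for the lists, was added after seeing the data, as was the number within each genotype as a block across tumor and lung. The depth of 4446323 to 8318711 counts limits genes with few counts. The scripts were tested on simulated data with 200 changed genes. The 72 pairs of replicates differed by more than sampling noise (chi-squared of 2.43 to 14.9 for each degree of freedom). A gene of the transcription list is not reported here. Single exons, alleles and proteins were not analysed here.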

Additional observations from a re-analysis of the deposited data

Results flagged for a closer look

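The host genotype effect in tumors minus that in 14-day lungs passed the test of the difference itself (edgeR, FDR under 0.05) for 8 genes. The differences in log2 fold change were 1.73 for *H2-Q6*, 1.67 for *H2-Q7*, 1.61 for *Nlrc5*, 1.28 for *H2-Q1*, 1.22 for *H2-Q4*, 1.10 for *H2-K1*, 1.05 for *H2-T23* and 0.94 for *H2-D1*, each higher in tumors. The calls of *H2-T23* and *Nlrc5* were lost in 16 and 15 of the 24 fits that left out 1 sample, and with the replicate number as a block. None of 60 sets of a gene's FPKM values in a group had a sample that stood apart by Dixon's test.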

How the results depend on the processing

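In tumors the count of called genes was 10 of 10 under every alternative but the 2-fold limit, where it was 8, and in the 12 fits that each left out 1 tumor it ranged from 10 to 10. For the genotype effect in tumors minus that in 14-day lungs it was 6 to 9 over the other alternatives and over the 24 fits that left out 1 sample. There *H2-T23* lost its call in 16 fits and *Nlrc5* in 15, and *B2m* gained it in 3. For WT-host tumors against 14-day WT lungs, 9 values of the same sign gained a call and 5 lost it over the alternatives that kept all samples. With the 2-fold limit 1 gene was called in place of 4, and limma on log2(FPKM + 1) called 5. The count of called genes was 4 to 5 when 1 sample was left out. In the lung comparisons and their interaction it was 0 to 0 when 1 sample was left out. In control lungs, KO against WT, 1 gene (*H2-Q4*) was called by DESeq2 and 1 with only the compared groups in the fit. With *Rn7s1*, *Rn7s2* and *Rn7sk* out of the total, *H2-M3* in WT-host tumors was at 14.5 FPKM in place of 15.8.

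The replicate numbers were not taken to pair the samples. Same-numbered tumors of the 2 genotypes correlated in their deviations from the group means at -0.29 to 0.11 (mean -0.03). The labels do not say whether a tumor and a 14-day lung of the same genotype and number come from 1 mouse, and these correlated at 0.047 to 0.19 in KO hosts (mean 0.10) and at -0.021 to 0.085 in WT hosts (mean 0.024), over 0.1 in 3 of 12 pairs. In KO hosts 5 of 6 tumors and 4 of 6 lungs correlated best with their own number, and in WT hosts 2 and 1. These values hint at shared mice for KO hosts only. The order of the deposited columns sets each 14-day lung beside the tumor of its number in both genotypes, which is a further hint. The main fit of 24 samples took tumors and lungs as independent. The replicate block left all 10 genes called in tumors (highest FDR 0.0233) and took *H2-T23* (FDR 0.0698) and *Nlrc5* (FDR 0.0664) out of the calls for the difference between tissues. With the number within each genotype as a block, added after seeing the data, 6 genes were called for that difference, and *H2-T23* (FDR 0.0683) and *Nlrc5* (FDR 0.0685) were not.

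No called value changed sign. Of 1640 values of the 10 genes in lungs under the alternatives, 73 had the other sign than the value reported, and 0 of these were called. Of the 73, 27 were in WT lungs from control to 14 days, 17 in 14-day lungs KO against WT, 12 in control lungs, 9 in KO lungs from control to 14 days and 8 in the interaction, and 59 came from leaving out 1 sample. In control lungs GC offsets turned *H2-Q6* to 0.063 and *Nlrc5* to 0.027, and GC offsets with the replicate block turned *H2-Q6* to 0.045. In 14-day lungs, KO against WT, *H2-Q7* was at 0.017 with paralogs summed. In WT-host tumors against lungs, *B2m* was at 0.26 and *H2-Q4* at 0.12 with GC offsets, *H2-D1* at 0.013, *B2m* at 0.28 and *H2-Q4* at 0.15 with GC offsets and the replicate block, and *H2-K1* at -0.12 with paralogs summed. When 1 sample was left out, *H2-Q7* in 14-day lungs ranged from -0.25 to 0.054, *H2-Q6* in control lungs from -0.18 to 0.082, *Nlrc5* in control lungs from -0.26 to 0.15 and *H2-Q4* in WT-host tumors against lungs from -0.20 to 0.040. The causes were not tested.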
